A study of Mus musculus with 6 samples.

Results

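Perm1 and 9 genes of the PGC-1/ERR pathway (Ppargc1a, Ppargc1b, Pprc1, Esrra, Esrrb, Esrrg, Nrf1, Gabpa and Tfam) were examined by name among the 34745 genes that the authors counted in MLE-12 cells, so that the set holds 10 of 34745 genes. MLE-12 is an immortalized line of mouse lung epithelial cells. RNA was sequenced from 3 libraries of cells given NR4A1 overexpression plasmids and from 3 libraries of cells given the pCMV-SPORT6 vector control. All 6 come from the same cell line and carry the same plasmid backbone, and the line is a tumour-derived model, not lung tissue. Perm1 was chosen from its difference between these very libraries, so its values are given as a description with no test. The other 9 genes were chosen by their place in the pathway, and the difference of each is read from a fit across all tested genes.

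PGC-1α (Ppargc1a), PGC-1β (Ppargc1b) and the PGC-1-related coactivator (Pprc1) are coactivators that do not bind DNA themselves but dock on transcription factors and raise the output of nuclear genes for mitochondria. Their partners include the estrogen-related receptors ERRα, ERRβ and ERRγ (Esrra, Esrrb, Esrrg), which are orphan nuclear receptors, as well as nuclear respiratory factor 1 (Nrf1) and the DNA-binding subunit of GABP (Gabpa). These factors act on, among others, Tfam, whose protein packages mitochondrial DNA and starts its transcription. Perm1 is named as a regulator induced by PGC-1 and ERR in muscle, and is known for its expression in skeletal muscle and heart. NR4A1, the transfected factor, is itself an orphan nuclear receptor that can bind DNA as a monomer at an element whose core, AAGGTCA, is also the core of the ERR element.

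The promoter of Perm1 is shown because Perm1 is the gene of the set that differed between the groups, and stretches of the Tfam and Gabpa promoters are shown because a searched motif occurs in them. RefSeq promoter windows on GRCm38.p6, from 250 bases before to 50 bases after a start site, were found for 9 of the 10 genes, with 14 windows in all. Capitals mark the motif. In Perm1 (chr4:156215677-156215976, plus strand) it is AAGGTCA on the opposite strand, read here as TGACCTT, with its first base 202 bases before the start site. In Tfam (chr10:71238054-71238121, minus strand) it is the GABPA motif CCGGAAGT, 47 bases before the start site. In Gabpa (chr16:84835086-84835153, plus strand) it is the core of the NRF-1 motif, CGCATGCG, 8 bases before the start site. These start sites are those of RefSeq and differ from the ends of the counted genes. The Perm1 start site is 156215927, where the counted gene begins at 156215868. The stretches of Tfam and Gabpa lie inside the counted genes (71225464 to 71238280 and 84834925 to 84863779).
Perm1: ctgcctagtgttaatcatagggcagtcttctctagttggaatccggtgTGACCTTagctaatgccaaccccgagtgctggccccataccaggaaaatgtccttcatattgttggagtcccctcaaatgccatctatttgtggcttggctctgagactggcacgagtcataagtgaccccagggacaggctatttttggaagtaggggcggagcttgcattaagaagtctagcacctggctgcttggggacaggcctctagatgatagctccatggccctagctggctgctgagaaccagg
Tfam: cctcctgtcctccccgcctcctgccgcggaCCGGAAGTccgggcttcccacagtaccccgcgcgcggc
Gabpa: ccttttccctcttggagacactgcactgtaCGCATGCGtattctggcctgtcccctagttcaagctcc

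Both strands of every window were searched. The core AAGGTCA occurred in 1 of the 14 windows, that of Perm1, and in 4.72% of all 32851 RefSeq windows. The full NR4A1 monomer element AAAGGTCA and the full ERR element TCAAGGTCA, both of which contain this core, occurred in 0 of the 14 windows and in 1.51% and 0.423% of all windows. CGCATGCG occurred in 1.87% and CCGGAAGT in 3.89% of all windows, and each in 1 of the 14. A match only says that the letters are present in the window, and binding was not measured here.

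Library totals ranged from 15019038 to 17574340 counts. Nr4a1, the transfected gene, had 3425, 3580 and 3961 CPM (counts scaled to library size with TMM factors) in NR4A1 overexpression replicates 1, 2 and 3 and between 24.8 and 30.4 CPM in the vector controls. Of the 6 epithelial markers, Krt19 (5887 to 9551 counts per library), Krt8 (2767 to 3835) and Cdh1 (439 to 605) were well counted, whereas Krt7 had 26 to 108 counts, Epcam had 2 to 22, and Krt18 had 164 in NR4A1 overexpression replicate 2 and 2 to 21 in the other libraries. Of the alveolar type 2 markers, Abca3 (1774 to 2272 counts), Sftpc (1013 to 1389), Nkx2-1 (946 to 1445) and Sftpb (189 to 336) were well counted. Lamp3 had 2 to 6 counts, Sftpd at most 2 and Sftpa1 0 in every library. Dcn, a fibroblast marker, had 14138 to 17269 counts, more than Krt19 in every library, so this marker did not follow the epithelial label. The other fibroblast markers were lower than Dcn in every library. Lum had 48 to 75 counts. Outside NR4A1 overexpression replicate 2 and vector control replicate 1, Col1a1 had 84 to 124 counts and Pdgfra 12 to 18. NR4A1 overexpression replicate 2 stood apart. The summed level of the 5 smooth muscle markers was 318 CPM there against 1.49 to 2.72 CPM in the other 5 libraries, that of the 6 endothelial markers was 99.8 against 6.85 to 7.77 CPM, and that of the 7 fibroblast markers was 1534 against 918 to 1043 CPM, most of which was Dcn (878 to 1031 CPM). Vector control replicate 1 stood above the other vector controls in Col1a2 (284 counts against 14 and 10) and Pdgfra (92 against 12 and 12). It also did so in Col1a1, Col3a1 and Pdgfrb, but not in CPM of Dcn or Lum. Its fibroblast sum of 1015 CPM lay between those of vector control replicates 2 (1043) and 3 (918). The 5 immune markers summed to 1.91 to 4.17 CPM over all libraries. In bulk RNA, a change in the number of cells that express a gene and a change in the RNA per cell cannot be told apart.

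Perm1 was nearly silent in the vector controls and was counted in every NR4A1 library. The gene (ENSMUSG00000078486) lies on chromosome 4 from 156215868 to 156221307 on the plus strand (GRCm38), with 4 exons that sum to 3901 bases. It had 35, 31 and 30 counts in NR4A1 overexpression replicates 1, 2 and 3 and 2, 0 and 2 counts in vector control replicates 1, 2 and 3. The lowest NR4A1 library was thus well above the highest vector control, and replicate 2, the library with the other cell types' markers, lay between the other two. Per length and depth the level was 0.597, 0.469 and 0.443 FPKM (fragments scaled to gene length and library size) with NR4A1 and 0.0298, 0 and 0.0292 FPKM with vector. Over the summed counts, 96 against 4, the ratio of the normalized rates was 25.4, given without an interval because Perm1 was chosen for this difference. Set against 3 counts in each vector control, the smallest amount taken as measurable in a library, the fold was 11.4 ± 1.94 (SD over the NR4A1 libraries, n = 3).

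Perm1 was the gene of the set past the threshold, a change of 2-fold or more with an adjusted p under 0.05 in edgeR's quasi-likelihood test, which is the reason why it was chosen. Of the 12941 genes tested, 0.17% were past this threshold with higher expression and 0% with lower expression. Perm1 passed the filter on low counts through the NR4A1 libraries alone. It passed under 8 of 18 other settings and failed under 10, whereas its counts in the groups did not overlap. The 8 include the looser thresholds on the same fit (unadjusted p, or no fold limit), which a gene past the main threshold must pass. The 10 include leaving out any library other than NR4A1 overexpression replicate 2. No 50-base stretch of its transcript occurs in a transcript of another gene (0 of 3829).

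No gene beside Perm1 passed the threshold. Of the 7 other genes within 50 kb, 6 were tested, and 0 passed the threshold in edgeR's quasi-likelihood test, with log2 fold changes between -0.28 and 0.20 and adjusted p between 0.829 and 0.992. Plekhn1 lies on the opposite strand, tail to tail with Perm1, and its 3′ end is 149 bases beyond the end of Perm1. It had 137, 176 and 195 counts with NR4A1 and 250, 189 and 211 with vector, and its log2 fold change was -0.28 ± 0.148 (standard error, edgeR adjusted p = 0.829). In CPM its groups did not overlap, lying lower with NR4A1 by a narrow margin (at most 11.27 against at least 11.28 CPM). Of all tested genes, 12.9% had groups that do not overlap. AW011738, the nearest gene upstream on the same strand, had 41, 40 and 44 counts with NR4A1 and 38, 29 and 49 with vector, and these overlapped. Isg15, an interferon-induced gene, had 205 counts in NR4A1 overexpression replicate 2 and 80 to 132 in the other libraries. Samd11 had at most 2 counts in any library.

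**Figure D1:**
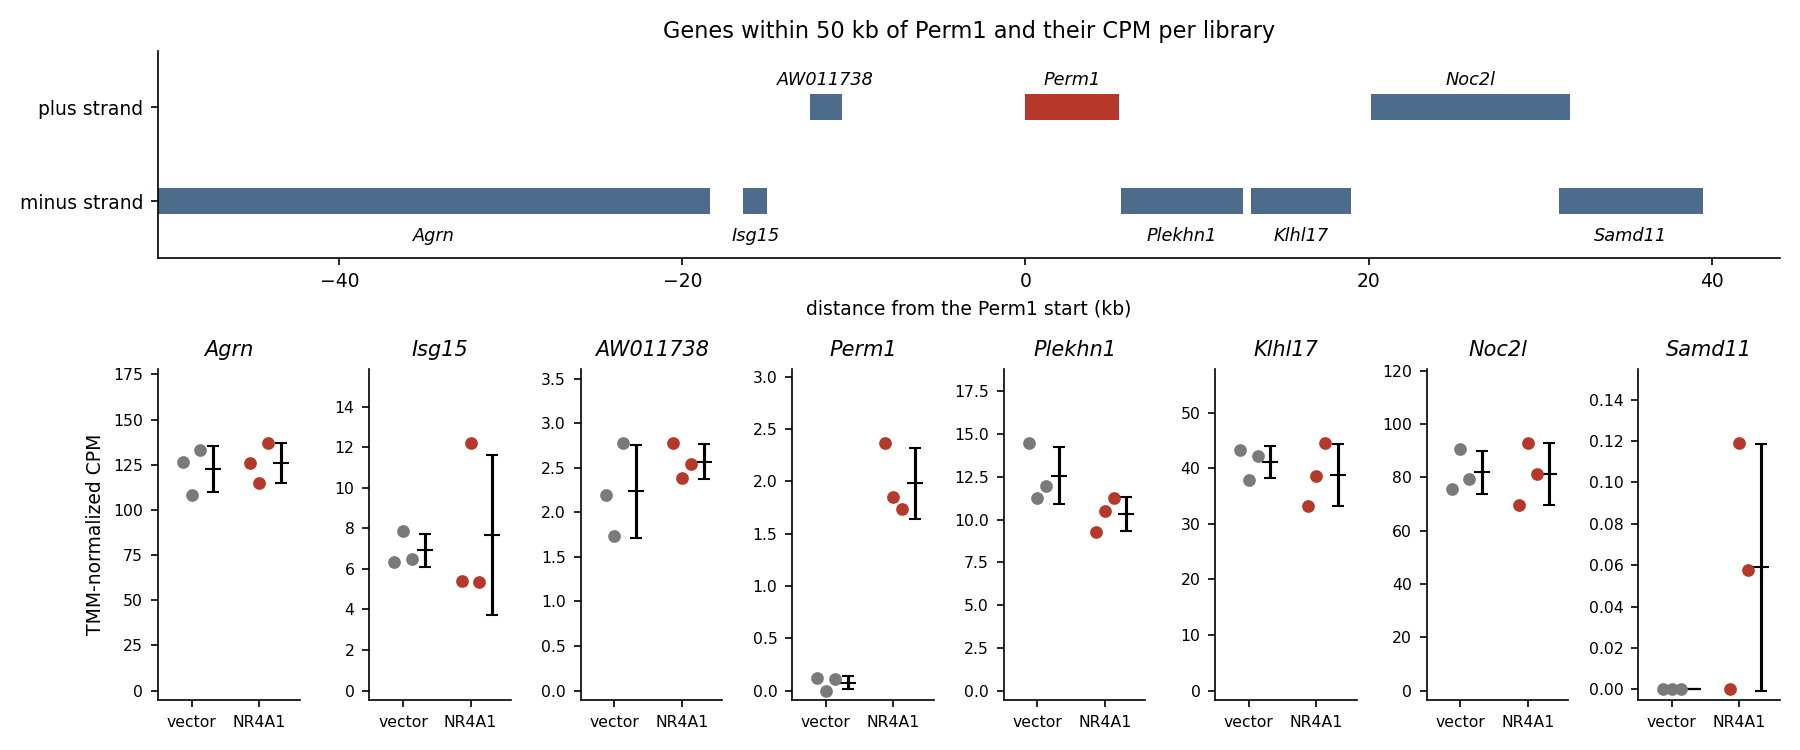
Upper panel: genes within 50 kb of Perm1 by strand, with distance from the Perm1 start in kb. Lower panels: TMM-normalized CPM of each gene in the vector (grey) and NR4A1 (red) libraries, with mean ± SD in black; Perm1 lies at 1.73 to 2.37 CPM with NR4A1 and at 0 to 0.116 CPM with vector, and of its neighbours Plekhn1 alone has groups that do not overlap, lower with NR4A1.

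The 3 coactivators of the PGC-1 family were counted in every library, and none of them passed the threshold. Ppargc1a, the family member best known for induction by cold, fasting and exercise, had 14.7, 10.3 and 10.1 CPM in NR4A1 overexpression replicates 1, 2 and 3 and 11.2, 8.47 and 11.4 CPM in the vector controls. The groups overlapped, and its log2 fold change was 0.17 (standard error 0.200, 95% interval -0.30 to 0.64). Ppargc1b had 5.14, 3.28 and 3.58 CPM with NR4A1 and 5.38, 2.75 and 2.66 CPM with vector. Replicate 1 was the highest library of both groups. In the vector group it is the library with the most Col1a2 and Pdgfra counts, whose part was not tested. Without vector control replicate 1 the log2 fold change was 0.56. With all libraries the log2 fold change of 0.15 had the widest interval of the tested members other than Perm1 (-0.65 to 0.95). Pprc1 had 89.0, 94.7 and 86.9 CPM with NR4A1 and 85.5, 86.8 and 86.6 CPM with vector. The 3 NR4A1 libraries lay just above the vector controls in CPM but overlapped with them in FPKM (7.70 to 8.33 against 7.62 to 7.79), and the log2 fold change was 0.06 (95% interval -0.11 to 0.23). In edgeR's fit the adjusted p was between 0.934 and 0.973 for these 3 genes.

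Of the estrogen-related receptors, ERRα was the form that MLE-12 cells expressed. Esrra had 36.0, 46.3 and 47.5 CPM with NR4A1 and 34.8, 45.5 and 39.1 CPM with vector. The groups overlapped, and the log2 fold change was 0.12 ± 0.143 (standard error, 95% interval -0.22 to 0.46, edgeR adjusted p = 0.941). Esrrb, which is best known from embryonic stem cells, had 0 counts in all 6 libraries, where 3 counts correspond to between 0.170 and 0.203 CPM. Esrrg, the form of heart, muscle and other tissues with high energy demand, had 5 counts in NR4A1 overexpression replicate 2 and 1 count in vector control replicate 1, and the remaining libraries had 0. Its highest value was in the library with the smooth muscle and endothelial markers, and the part of those cells in it was not tested. Neither Esrrb nor Esrrg passed the filter on low counts.

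Among the downstream factors, Tfam was the member with the lowest log2 fold change. Tfam had 90.1, 73.9 and 79.3 CPM in NR4A1 overexpression replicates 1, 2 and 3 and 92.5, 98.5 and 91.8 CPM in the vector controls. Every NR4A1 library lay below every vector control, and the group means were 81.1 ± 8.21 and 94.3 ± 3.68 CPM (SD, n = 3 each). Its log2 fold change was -0.22 (standard error 0.0947, 95% interval -0.44 to 0.00), which did not pass the test (edgeR adjusted p = 0.784, unadjusted p = 0.0540). The summed level of the 6 epithelial markers was 619 to 733 CPM with NR4A1 and 725 to 836 CPM with vector, which overlapped. That of the 7 alveolar type 2 markers was 266 to 287 CPM with NR4A1 and 289 to 300.2 CPM with vector, which did not overlap, and the part of either in the lower Tfam values was not tested. Without NR4A1 overexpression replicate 2, the lowest library, the log2 fold change of Tfam was -0.16. Nrf1 had 34.7, 30.2 and 33.0 CPM with NR4A1 and 33.2, 32.8 and 35.5 CPM with vector. These overlapped, and the log2 fold change was -0.05 (95% interval -0.25 to 0.15, edgeR adjusted p = 0.962). Gabpa had 190.0, 143 and 160 CPM with NR4A1 and 175, 146 and 172 CPM with vector. Replicate 2 was the lowest in both groups, and the log2 fold change was 0.00 (95% interval -0.29 to 0.29, edgeR adjusted p = 0.9997).

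Of the 9 members other than Perm1, 7 were tested, and 0 of them passed the threshold or had an unadjusted p under 0.05 in edgeR's quasi-likelihood test, against 6.46% of all tested genes with an unadjusted p under 0.05. DESeq2, edgeR's exact test and limma-voom also called 0 of these 7, although the unadjusted p of Tfam was 0.0460 in limma-voom and ranged from 0.0108 to 0.147 over the 16 other fits. The groups did not overlap for 2 of the 7, Pprc1 (higher) and Tfam (lower), against 12.9% of all tested genes in either direction. For all 7 the 95% interval of the log2 fold change in edgeR's fit to all libraries lay within a 2-fold change in both directions. That of Ppargc1b reached up to 0.95, and its log2 fold change was 0.56 without vector control replicate 1. A 2-fold change of Ppargc1b is therefore not excluded. Smaller changes are not shown to be absent. Pprc1, Esrra and Gabpa overlap a gene on the opposite strand (Ldb1, Trmt112 and Atp5j), and since the counting is not stated to use strand, reads from the overlapping ends may be assigned to either gene.

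**Figure D2:**
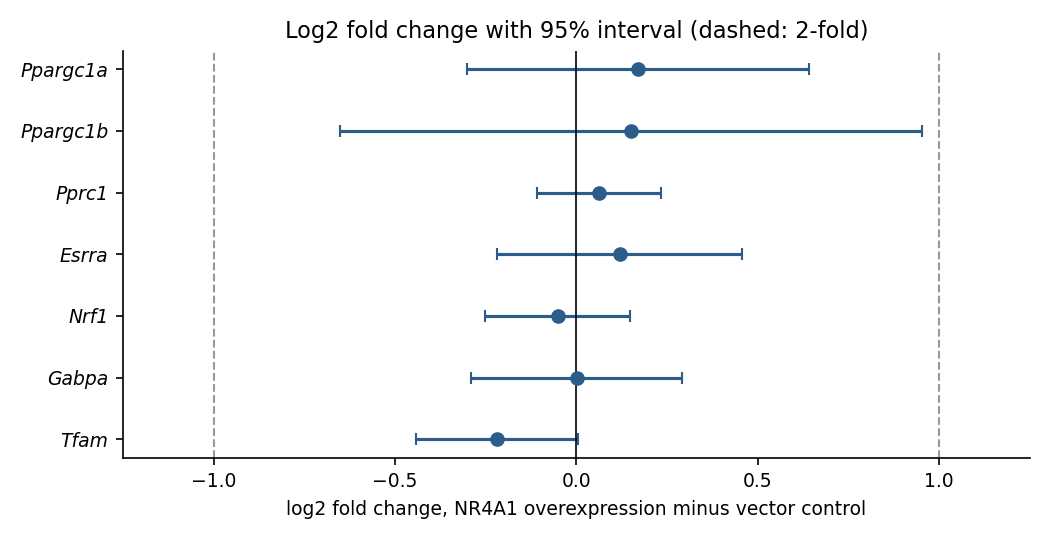
Log2 fold change (NR4A1 overexpression minus vector control) of the 7 tested members other than Perm1 on the horizontal axis, with 95% intervals from edgeR's quasi-likelihood fit and dashed lines at a 2-fold change. Every interval lies between the dashed lines, and that of Tfam (-0.44 to 0.00) ends nearest to 0 on one side.

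Apart from Perm1, the members differed far more from each other than between the groups. In FPKM, which scales counts by a length for each gene, the order of the group means was the same with vector and with NR4A1: Gabpa, Tfam, Esrra, Pprc1, Nrf1, Ppargc1a, Ppargc1b, Perm1, Esrrg and Esrrb. This order depends on the lengths used, which counts and FPKM put between 3901 bases for Perm1 and 18162 for Nrf1. In CPM with vector, Pprc1 (86.3) lay above Esrra (39.8). In the vector controls Gabpa had 22.8 ± 2.10 FPKM, Tfam 17.9 ± 0.768 FPKM and Esrra 9.83 ± 1.37 FPKM (SD, n = 3 each). Ppargc1a had 1.24 ± 0.194 FPKM and Ppargc1b 0.827 ± 0.353 FPKM, and the ranges of these neighbours overlapped. With NR4A1, the overlapping neighbours above Perm1 in this order were Nrf1 at 1.78 ± 0.119 FPKM and Ppargc1a at 1.38 ± 0.295 FPKM (SD, n = 3 each). Among the low members, the ranges of Perm1, Esrrg and Esrrb overlapped with vector at 0. With NR4A1, Perm1 reached 0.503 ± 0.0824 FPKM, apart from Esrrg below it, whose range overlapped with that of Esrrb, and still under every library of Ppargc1b (0.742 to 1.16 FPKM). These are levels of RNA per length, and they say nothing about protein.

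**Figure D3:**
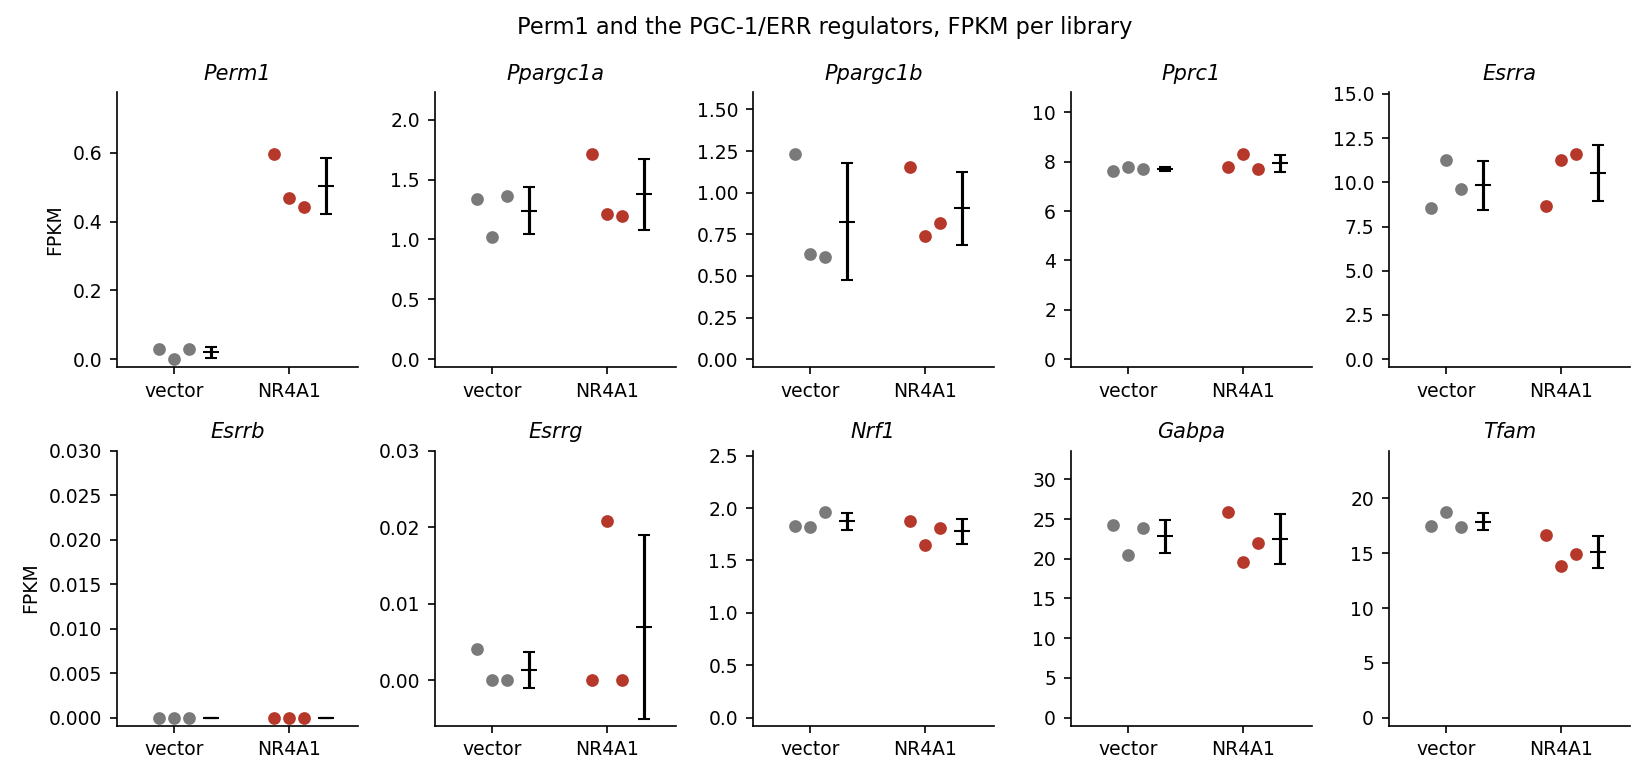
FPKM of each of the 10 genes in the 3 vector (grey) and 3 NR4A1 (red) libraries, replicates 1 to 3 from left to right, with mean ± SD in black; each panel has its own vertical axis. Perm1 separates the groups, Tfam lies lower in the NR4A1 libraries without passing the test, and Esrrb is at 0 throughout.

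The genes around these regulators were taken from 5 lists with 93 genes. In all 86 could be tested and 0 were called, by edgeR's quasi-likelihood test as by DESeq2, edgeR's exact test and limma-voom. In either direction, an unadjusted p under 0.05 in edgeR was found for 6 of the 86 (6.98%), close to the share over all tested genes (6.46%). Non-overlapping groups were found for 12 of 86 (14.0%, against 12.9%). All 6 were higher with NR4A1, against 520 of 836 over all tested genes. Of the 12, 11 were higher, against 866 of 1671, and 5 of these 11 are RNAs encoded by mitochondrial DNA. Log2 fold changes above 0 made up 64% of the 86, against 51.9%, and all 13 RNAs encoded by mitochondrial DNA are among them. In the other lists the share was 52.9% to 64.7%. The lean above 0 was not tested. Of 14 cofactors, such as the histone acetyltransferase Kat2a and the PGC-1 and GABP partner Hcfc1, 14 were tested, with a median log2 fold change of 0.00. Nrip1, a corepressor of nuclear receptors that is named here after its value was seen, had 63.4, 39.0 and 50.7 CPM with NR4A1 and 40.2, 28.8 and 33.6 CPM with vector. These overlapped, with a log2 fold change of 0.58 (edgeR adjusted p = 0.665). Of 21 upstream regulators, among them AMPK and CaMK subunits and MEF2 factors, 17 were tested, with a median of 0.06. Lpin1, a phosphatidate phosphatase that also coactivates PGC-1α, had 148, 216 and 211 counts with NR4A1 and 160, 121 and 156 with vector. In CPM its groups did not overlap, and the log2 fold change was 0.47 (edgeR adjusted p = 0.665). Yy1 (38.4 ± 4.58 FPKM with NR4A1 and 39.1 ± 1.94 FPKM with vector, SD, n = 3 each) and Camk2g had the highest mean FPKM over both groups in this list, although Fnip1 was above Camk2g with vector alone (18.9 against 18.4 FPKM). Camk4 (18 counts) and Prkaa2 (33 counts), named after their values were seen, were highest in NR4A1 overexpression replicate 2, with at most 1 and 11 counts in the other libraries.

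Of 28 known targets of PGC-1 and ERR, 25 were tested, with a median log2 fold change of 0.01 and values between -0.36 and 0.29. Cpt1a, which brings long-chain fatty acids into mitochondria, had 1815, 2313 and 2092 counts with NR4A1 and 2026, 1710 and 1906 with vector, a log2 fold change of 0.22 after normalization (edgeR adjusted p = 0.735). Pdk4, which restrains the entry of pyruvate into the citric acid cycle, had a log2 fold change of 0.21 (edgeR adjusted p = 0.753). In CPM the groups of both genes did not overlap, with higher values in the NR4A1 libraries. Atp5b and Slc25a4, the targets with the highest mean FPKM, had log2 fold changes of -0.01 and 0.01. The muscle-type targets Ucp3, Ckmt2 and Fabp3 were not tested: Ucp3 had at most 2 counts, Ckmt2 at most 3, and Fabp3 had 18 counts in NR4A1 overexpression replicate 2 and 0 in the other 5 libraries.

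The machinery that copies and transcribes mitochondrial DNA comprised 17 genes, all tested, with a median log2 fold change of 0.01. Tfb1m, a mitochondrial ribosomal RNA methyltransferase, had 161, 192 and 193 counts with NR4A1 and 157, 160 and 154 with vector, a log2 fold change of 0.29 after normalization (± 0.118 standard error, edgeR adjusted p = 0.744). Its groups did not overlap in CPM. The gene of this list with the highest mean FPKM, Peo1, the mitochondrial helicase, had a log2 fold change of -0.03, and Rnaseh1 had -0.04.

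All 13 messenger RNAs encoded by mitochondrial DNA itself had a log2 fold change above 0, from 0.08 for mt-Co2 to 0.35 for mt-Nd6, with a median of 0.15, while 51.9% of all tested genes were above 0 and their median was 0.01. None of the 13 passed the test in edgeR, DESeq2, the exact test or limma-voom, 1 of them (mt-Nd3) had an unadjusted p under 0.05 in edgeR, and its adjusted p was 0.735. By mean FPKM over both groups the highest were mt-Co1, with log2 fold change 0.11, and mt-Atp8, a short RNA, with 0.17. Their summed level was 68893, 62182 and 62098 CPM with NR4A1 and 59258, 60841 and 57378 CPM with vector, so that the groups did not overlap. All 13 were above 0 under each of the 16 other fits, library totals without TMM factors included, but the median was 0.07 without NR4A1 overexpression replicate 1, the library with the highest sum. These RNAs are cut from shared precursors and are not 13 independent observations.

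**Figure D4:**
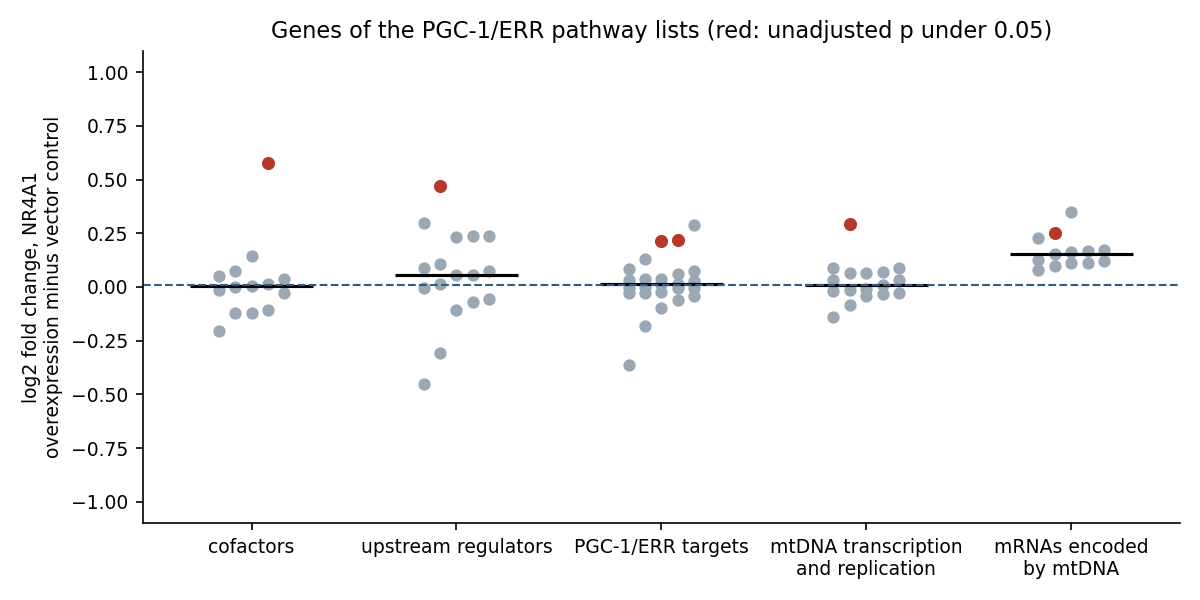
Log2 fold change (NR4A1 overexpression minus vector control) of the tested genes of the 5 lists, 1 point per gene, with the list's median as a black line and the median of all tested genes (0.01) as a dashed blue line; red points have an unadjusted p under 0.05. The 13 mitochondrially encoded RNAs all lie above 0 and the other 4 lists centre near it.

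Perm1 is known as a gene of striated muscle, so markers of skeletal and cardiac muscle were read beside it. Of 28 such markers, 12 had 0 counts in all 6 libraries, among them Ckm (muscle creatine kinase), Actc1, Myh1, Myh2, Myh4, Myh7, Myod1 and Myog. Their summed level was 24.5 to 29.4 CPM with NR4A1 and 32.1 to 33.4 CPM with vector, lower in every NR4A1 library, whereas Perm1 was higher in each. Of the 7 markers tested, 0 passed the threshold in edgeR's quasi-likelihood test and 1 had an unadjusted p under 0.05. This was Cox6a2, the muscle isoform of a cytochrome c oxidase subunit and the marker with the highest mean FPKM, with 71, 116 and 145 counts with NR4A1 and 195, 175 and 160 with vector (log2 fold change -0.61, edgeR adjusted p = 0.688). Mylpf, a fast muscle myosin light chain, had a log2 fold change of -0.28 (edgeR adjusted p = 0.860). Myl1 and Ttn, named after their values were seen, were higher in every NR4A1 library but had too few counts to be tested. Myl1 had 4, 3 and 5 against 0, 0 and 0 counts, and Ttn had 6, 4 and 11 against 2, 2 and 2 counts.

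The 5 genes whose pattern over the 6 libraries was most like that of Perm1 were Gm4673, Prr5l, Acacb, Gja1 and Cytip, with Pearson's r between 0.993 and 0.997 on log2 CPM. With 3 libraries in each group such values follow mainly from the difference between the groups, and 93 of 12940 genes had r over 0.95. Prr5l, a component that binds the mTORC2 kinase complex, had 53, 70 and 61 counts with NR4A1 and 8, 4 and 8 with vector. Acacb, the acetyl-CoA carboxylase at the mitochondrial outer membrane whose product malonyl-CoA inhibits Cpt1a, had 254, 251 and 285 counts with NR4A1 and 119, 82 and 104 with vector. Gja1, the gap junction protein connexin 43, had the smallest log2 fold change of the 5, at 0.77, and Prr5l the largest, at 3.26. Since the 5 genes were picked for a pattern that the difference between the groups dominates, no test is given for them.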

How the data were processed

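Strand-specific libraries of MLE-12 RNA, 3 with NR4A1 overexpression and 3 with vector, were made and sequenced by the authors, and groups and replicate numbers were taken from the labels. The table that the authors deposited holds, for every gene in each library, a raw read count and an FPKM value, which they scaled by gene length and library total. The study's methods name a strand-specific total RNA kit, whereas the labels describe mRNA isolation. The submitters' processing notes name HISAT2 2.0.4 and GRCm38.p4, and the counting program and its strand setting are not given in the sources used here. All 10 genes have the coordinates of GENCODE M21.

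edgeR 4.0.16 (R 4.3.3) gave TMM factors, the filterByExpr filter and the quasi-likelihood fit over all genes, with Benjamini-Hochberg adjustment. Calls needed a change of 2-fold or more with an adjusted p under 0.05. Standard errors were derived from each gene's F statistic. The labels do not say whether the libraries are separate cultures, so p-values measure the spread between these samples, and replicates differed by more than counting error (chi-square per degree of freedom 9.36 to 41.8). On simulated counts with 200 of 12822 genes changed 3-fold, edgeR recovered 185 with 10 false calls. The changed genes were drawn from those with a mean above 1 CPM, and no simulated library was made to stand apart. The share recovered therefore does not carry over to genes with lower counts or to these libraries. Alternatives were DESeq2 1.42.0, the exact test, limma 3.58.1 (voom, and log2 of FPKM plus 1 or 0.1), other scalings, filters and thresholds, a replicate block and each library left out.

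The genes and lists were chosen with earlier results of these data known. Named were all members, called genes, genes with non-overlapping groups and an unadjusted p under 0.05 (up to 4 a list), the 2 with the highest mean FPKM in each list, genes within 50 kb of Perm1 and the 5 most like it.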

Additional observations from a re-analysis of the deposited data

How the results depend on the processing

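The call of Perm1 depended on the settings, and its counts did not. The number of members past the threshold was 1 in the fit reported and 0 with no count filter, with a mean of at least 10 counts, with the replicate block, and with limma on log2(FPKM + 1), where Perm1 was not among the genes tested, or log2(FPKM + 0.1), and it lay from 0 to 1 with single libraries removed (1 only without NR4A1 overexpression replicate 2). The cause was not tested. The fold of Perm1 against 3 counts was 10.3 to 12.03 with each library left out and 20.6 against 1 count. Over all genes, 22 were past the threshold, against 73 with DESeq2 (71 higher, 2 lower), 68 with the exact test (67 higher, 1 lower), 8 with a mean of at least 10 counts, 7 and 9 with limma on log2(FPKM + 1) and log2(FPKM + 0.1), 161 with an unadjusted p (144 higher, 17 lower), and 3 to 28 with each library left out. A fit with a replicate block called 5. Same-numbered libraries deviated from their group means with correlations of -0.01, -0.05 and 0.25. These values cannot decide whether same-numbered libraries were handled together. An unadjusted p under 0.05 in edgeR's quasi-likelihood test was found for 1205 genes with the block and 836 without it. No gene of the 5 pathway lists was called under any of the 18 alternatives.

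The log2 fold changes of Tfam (-0.30 to -0.16), Esrra (0.03 to 0.24) and Pprc1 (0.03 to 0.08) kept their sign under all 16 other fits. Ppargc1b was not among the genes tested with log2(FPKM + 1). With each library left out, Ppargc1a ranged from -0.0249 to 0.258, Ppargc1b from -0.0688 to 0.561, Nrf1 from -0.0974 to 0.000911 and Gabpa from -0.117 to 0.0899, and each of these 4 changed sign in at least 1 of those fits. Gabpa was also at -0.00446 with limma-voom, -0.0194 with library totals, -0.00429 with the replicate block, -0.0243 with log2(FPKM + 1) and -0.0255 with log2(FPKM + 0.1). Perm1 had about 30 counts per NR4A1 library, and 2 members were too low to test.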
